A study of Mus musculus with 4 samples.

Results

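The genes of the major histocompatibility complex (MHC) and of antigen presentation were examined in cultured myoblasts of Tet2 KO and wild type (WT) mice. Members were taken by gene symbol from the table of 24445 genes: each row whose symbol begins with H2-, the prefix of the mouse MHC, and the rows B2m, Tap1, Tap2, Tapbp, Cd74, Ciita and Nlrc5. This gave 51 members, 44 of them H2- genes. Tet2 encodes an enzyme that oxidises 5-methylcytosine, and the series asks how its loss alters the RNA of primary myoblasts. RNA sequencing covered 4 libraries, 2 from WT and 2 from Tet2 KO, all of the strain C57BL/6. The labels state that satellite cells, which are muscle stem cells, were sorted from hindlimb as PI-, CD45-, CD11b-, CD31-, Sca1-, CD34+ and Integrin a7+ cells. In both groups they then grew on collagen for 3 days or more, in a medium the labels call T cell medium, until they were MyoD+ myoblasts. Per the study's methods, Tet2 KO was a knockout of the whole animal, not a deletion induced in satellite cells, and mice were males aged 8 to 10 weeks unless stated otherwise.

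Class I molecules pair a heavy chain with beta-2-microglobulin and show peptides from the cytosol to CD8 T cells. Proteasomes cut these peptides, the Tap1 and Tap2 transporter carries them into the endoplasmic reticulum, and tapasin helps to load them. In the mouse the classical heavy chains are H2-K and H2-D, and the H2-Q, H2-T and H2-M regions hold nonclassical ones, several of which meet receptors of natural killer cells or of unusual T cells. Class II molecules, pairs of an alpha and a beta chain, show peptides from the endosome to CD4 T cells and are best known from B cells, dendritic cells and macrophages. The proteins Nlrc5 and Ciita switch on transcription of class I and class II genes respectively, and interferon-gamma raises both.

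Each group had 1 pooled FPKM value per gene (fragments per kilobase of transcript per 1000000 mapped fragments), so no standard deviation, number of replicates or test stands beside any value, and no difference could be set against the spread between libraries. Differences are given as log2((Tet2 KO + 1)/(WT + 1)), called log2 ratio here, in which the pseudocount of 1 FPKM makes the change of low genes look smaller. A gene was counted when its mean FPKM over both groups was at least 1, and "2-fold" means a log2 ratio of 1 or more in size. The depth of the libraries is unknown, since no counts were given. Tet2 itself had 5.79 FPKM in Tet2 KO against 6.64 in WT, a log2 ratio of -0.17. As a gene-level value it takes in every exon, so the loss of exon 3 cannot be read from it and the labels could not be checked. Of 6 myoblast markers fixed for this work, all 6 were present, with 313 FPKM of Myod1 in Tet2 KO and 336 FPKM in WT.

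Because the class I genes are close copies of each other, sequence comes before the values. The start of the second coding exon encodes the start of the alpha 1 domain of the peptide groove. Its first 120 bases are shown for 5 heavy chain genes whose values carry the results below. They were read from the mm9 genome on the strand of each gene at chr17:36178954-36179073 (H2-T22), chr17:36257701-36257820 (H2-T10), chr17:36169248-36169367 (H2-T23), chr17:34136829-34136948 (H2-K1) and chr17:35400324-35400443 (H2-D1), and lie in coding exons of the GENCODE vM1 annotation. Capitals mark bases that differ from H2-T22.
H2-T22: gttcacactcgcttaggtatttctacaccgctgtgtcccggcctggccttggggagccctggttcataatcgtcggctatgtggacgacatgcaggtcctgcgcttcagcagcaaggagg
H2-T10: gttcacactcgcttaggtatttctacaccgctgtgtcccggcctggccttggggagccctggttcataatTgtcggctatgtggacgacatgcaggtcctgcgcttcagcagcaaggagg
H2-T23: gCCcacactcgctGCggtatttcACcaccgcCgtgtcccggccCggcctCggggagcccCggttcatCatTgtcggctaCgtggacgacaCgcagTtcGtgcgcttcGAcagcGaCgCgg
H2-K1: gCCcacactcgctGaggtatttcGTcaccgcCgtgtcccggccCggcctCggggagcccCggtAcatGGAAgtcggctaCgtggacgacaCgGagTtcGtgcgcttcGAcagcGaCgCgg
H2-D1: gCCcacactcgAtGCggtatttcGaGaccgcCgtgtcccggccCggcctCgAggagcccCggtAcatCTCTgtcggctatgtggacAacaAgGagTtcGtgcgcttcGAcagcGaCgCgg
In this stretch H2-T10 differed from H2-T22 at 1 base, H2-T23 at 21, H2-K1 at 24 and H2-D1 at 27. Over the aligned coding sequences H2-T10 and H2-T22 shared 96.9% of 1134 bases, H2-Q6 and H2-Q7 94.9% of 999, and H2-D1 and H2-K1 92.0% of 1074. H2-T22 and H2-T23, which lie next to each other, shared only 76.3% of 1020 aligned bases.

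How far a read can be placed depends on such likeness. Every 50-base window of the exons was searched for in the 21 main mm9 chromosomes. A second copy existed for 42.6% of the windows of H2-T22, 39.2% of H2-T10, 37.8% of H2-T23, 61.8% of H2-Q7 and 37.1% of H2-Q6, against 16.6% of H2-D1 and 8.15% of H2-K1. With windows of 100 bases these shares were 12.5%, 5.79%, 14.3%, 35.5%, 20.5%, 6.48% and 0% in the same order. H2-T24 had a second copy for 4.45% of its 50-base windows, and B2m, H2-Aa, H2-Ab1, H2-Eb1 and H2-DMa had none. The read length, and how reads that match several genes were divided, are not given in the sources used here, so the values of single H2-T and H2-Q genes are uncertain.

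Of the 51 members, 29 had a mean FPKM of at least 1, and 22 lay below it, 8 of these at 0 in both groups. Among the 29, 18 were higher and 11 lower in Tet2 KO, where 48.8% of all genes above the same minimum were higher by any amount. At least 2-fold higher were 7 members, H2-T23, H2-T22, H2-T9, H2-Aa, H2-Ab1, Cd74 and H2-Eb1, while 0 were at least 2-fold lower. Among all 11692 genes that met the same minimum, 2.08% were 2-fold higher and 1.21% were 2-fold lower. At 1.5-fold, 9 members were higher and 4 lower, against 3.72% and 2.89% of all genes. Since the members were put together with such differences known, these shares are background and nothing is drawn from the contrast. The median log2 ratio of the 29 members was 0.18, beside -0.0044 over all genes. The members H2-Aa, H2-Ab1, H2-Eb1 and H2-T24, had under 1 FPKM in WT and met the minimum through Tet2 KO alone, so these 4 had to be higher there. RNA of bulk cultures cannot tell fewer cells of a type from less RNA per cell, which holds for every difference below.

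**Figure D1:**
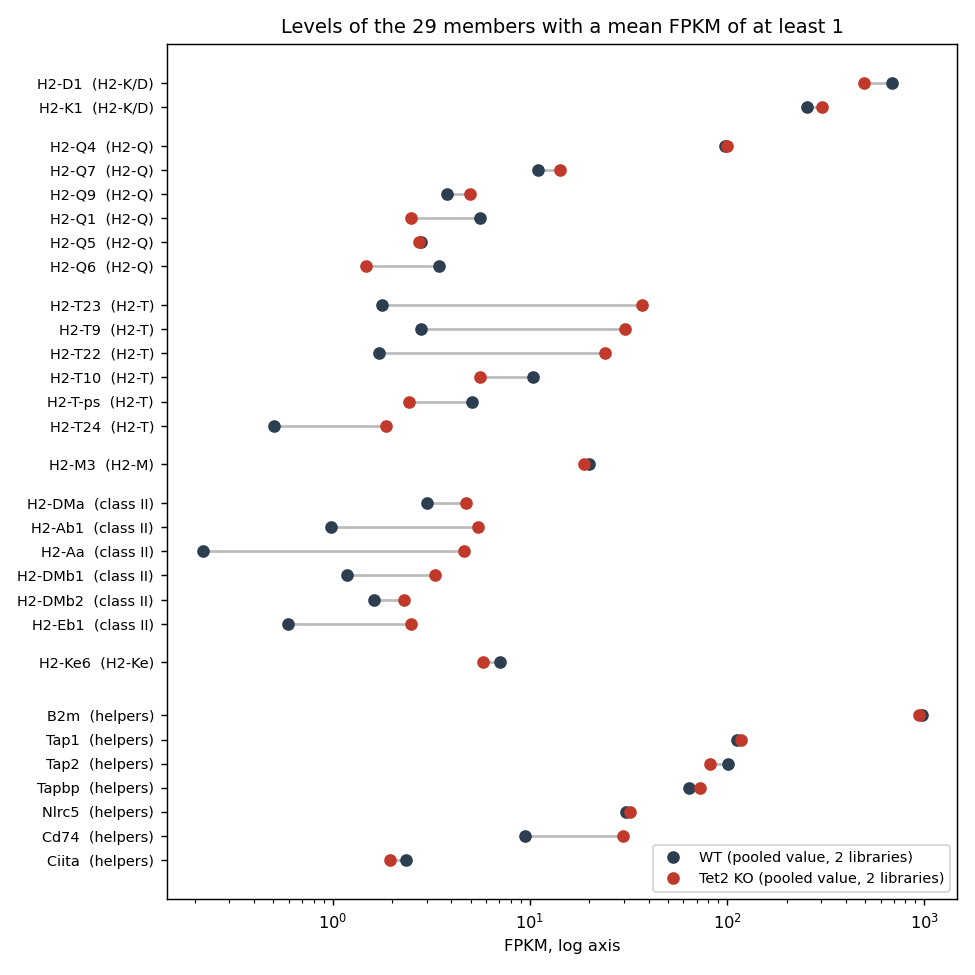
Pooled FPKM (log axis) of the 29 members with a mean of at least 1, grouped by class, with WT as dark and Tet2 KO as red points joined by a grey line. Long lines belong to H2-T23, H2-T9, H2-T22 and the class II chains, while H2-D1, H2-K1, H2-Q4, B2m and the transporter genes sit at the high end with short lines.

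The classical heavy chains H2-K1 and H2-D1, which present most peptides to CD8 T cells, were by far the most abundant H2- transcripts in both groups and moved in opposite directions by small amounts. H2-K1 had 301 FPKM in Tet2 KO against 253 in WT, a log2 ratio of 0.25. H2-D1 had 492 FPKM in Tet2 KO against 685 in WT, a log2 ratio of -0.48. The level of H2-D1 was thus 2.70 times that of H2-K1 in WT and 1.63 times in Tet2 KO, on a scale per length of transcript. Summed, both genes had 793 FPKM in Tet2 KO against 939 in WT. H2-D1 did not stand alone at its locus: the table gives H2-D1, H2-L, H2-Q1 and LOC547349 1 shared locus, chromosome 17 from 35400039 to 35462354, where the 4 rows summed to 495 FPKM in Tet2 KO against 691 in WT. The other 2 rows of the group lay below the minimum, with up to 0.764 FPKM in Tet2 KO and up to 0.736 FPKM in WT.

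The H2-T genes held the members with the highest log2 ratios at a pseudocount of 1, an order that depends on it, since without a pseudocount H2-Aa (4.40) and H2-T23 (4.38) were alike. H2-T23 encodes the heavy chain of Qa-1, which displays leader peptides of other class I molecules to the receptor CD94-NKG2A of natural killer cells. It had 37.2 FPKM in Tet2 KO against 1.79 in WT, a 20.8-fold ratio and a log2 ratio of 3.78. H2-T22, a heavy chain without a usual peptide groove that is bound by some gamma-delta T cells, had 23.9 FPKM in Tet2 KO against 1.72 in WT, a log2 ratio of 3.20. H2-T9 had 30.2 FPKM in Tet2 KO against 2.82 in WT, a log2 ratio of 3.03. All of them were low in WT and at moderate levels in Tet2 KO. Against H2-K1 the shift was large: H2-K1 had 142 times the FPKM of H2-T23 in WT and 8.10 times in Tet2 KO. H2-T24, the last member at this place, had 1.87 FPKM in Tet2 KO against 0.502 in WT, and its log2 ratio of 0.93 lay just short of 2-fold.

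These genes are not independent rows. The table gives H2-T22, H2-T23, H2-T24, H2-T9 and A930015D03Rik the same locus, chromosome 17 from 36131449 to 36179687, a stretch of 48239 bases, and the 5 rows summed to 93.2 FPKM in Tet2 KO against 6.82 in WT, a 13.7-fold ratio. In GENCODE vM1, H2-T24 runs from 36142640 to 36157505, H2-T23 from 36166718 to 36169800 and H2-T22 from 36174073 to 36179692, each as a protein-coding gene. The same annotation puts H2-T9 outside this stretch, from 36264424 to 36266370, so the place of the H2-T9 row is uncertain. At that other place lies the row Gm7030, from 36264554 to 36266370, with 0.103 FPKM in Tet2 KO against 0.149 in WT.

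Beyond that locus the H2-T genes went the other way. H2-T10, the near copy of H2-T22 that gamma-delta T cells also bind, had 5.58 FPKM in Tet2 KO against 10.4 in WT, a log2 ratio of -0.79. GENCODE vM1 types H2-T10 as a polymorphic pseudogene, so its RNA need not stand for a working heavy chain. H2-T-ps, a pseudogene by its symbol, had 2.45 FPKM in Tet2 KO against 5.09 in WT, a log2 ratio of -0.82. Over the 6 H2-T rows that met the minimum the median log2 ratio was 1.98, but this number turned on the shared locus: with its rows left out the median of the remaining pair was -0.80. Summing H2-T22, H2-T9 and H2-T10 gave 59.7 FPKM in Tet2 KO against 14.9 in WT, a 4.01-fold ratio. Adding H2-T-ps gave 62.2 FPKM in Tet2 KO against 19.99 in WT, a 3.11-fold ratio. H2-T3, below the minimum, had up to 0.0350 FPKM.

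**Figure D2:**
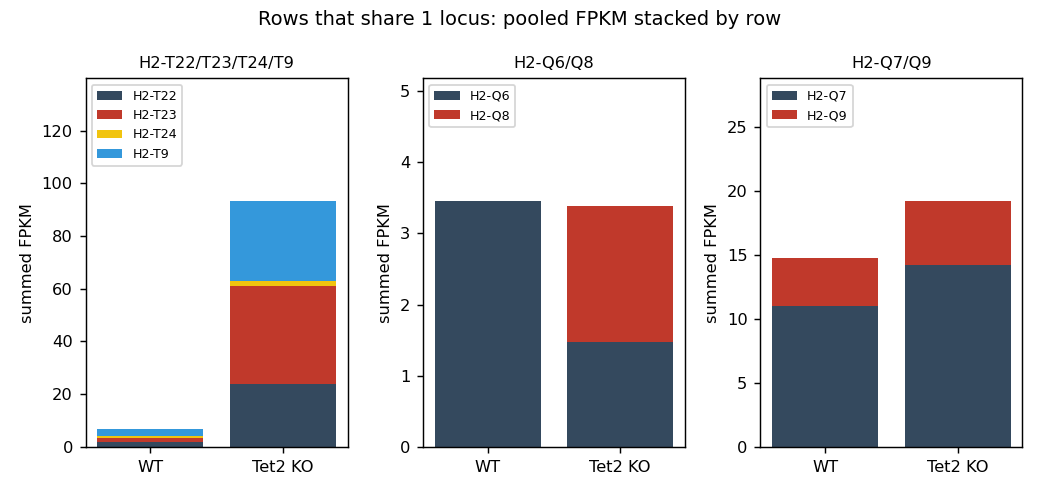
Pooled FPKM (linear axes from 0, each panel on its own scale) stacked by row for 3 loci of chromosome 17 that several members share, WT and Tet2 KO side by side. At the H2-T22, H2-T23, H2-T24 and H2-T9 locus the stack was higher in Tet2 KO, whereas at the H2-Q6 and H2-Q8 locus the stacks were of like height with a different split.

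The H2-Q genes, some of which encode the Qa-2 antigen, showed little difference as a group, with a median log2 ratio of 0.0053 over 6 of 9 rows. H2-Q4 held most of their RNA, with 100 FPKM in Tet2 KO against 97.2 in WT. H2-Q7 and H2-Q9, which encode Qa-2, share the locus from 35576100 to 35580718. H2-Q7 had 14.2 FPKM in Tet2 KO against 11.0 in WT, and H2-Q9 had 4.98 FPKM in Tet2 KO against 3.802 in WT, log2 ratios of 0.35 and 0.32. H2-Q6 and H2-Q8 share the locus from 35561792 to 35565306, and there the single rows and their sum differ in what they show. H2-Q6 had 1.47 FPKM in Tet2 KO against 3.45 in WT, while H2-Q8 had 1.91 FPKM in Tet2 KO against 0.000318 in WT. Their sum was 3.38 FPKM in Tet2 KO against 3.45 in WT, a ratio of 0.979, so the split between both rows differed but their sum hardly did. GENCODE vM1 puts H2-Q8 outside this locus, from 35531071 to 35534971, where it overlaps the H2-Q5 row. The place of the H2-Q8 row is therefore uncertain. H2-Q8 has a mean just under 1 FPKM and is not among the 29. H2-Q1, at the H2-D1 locus, had 2.51 FPKM in Tet2 KO against 5.58 in WT, a log2 ratio of -0.91, and H2-Q5 had 2.74 FPKM in Tet2 KO against 2.82 in WT. Both other H2-Q rows had at most 0.113 FPKM.

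Among 12 H2-M rows a single gene was expressed above the minimum. H2-M3, which presents bacterial peptides that begin with N-formylmethionine, had 18.8 FPKM in Tet2 KO against 19.99 in WT, a log2 ratio of -0.08. The other 11 had at most 0.148 FPKM, and 7 were listed at 0 in both groups. H2-Bl, the member of no group, had 0.0929 FPKM in Tet2 KO against 0.240 in WT. Summed over all 32 class I rows, 1042 FPKM in Tet2 KO stood against 1106 FPKM in WT, and without the H2-T23 locus 949 FPKM stood against 1099 FPKM. The H2-T23 locus was therefore a small part of the class I RNA in each group.

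Class II genes were low in both groups and higher in Tet2 KO throughout. All 6 of 10 class II rows that met the minimum were higher, 3 of them at least 2-fold, with a median log2 ratio of 1.06, and the 3 that were 2-fold, the classical chains, met the minimum through Tet2 KO alone. With at least 1 FPKM in both groups the median was 0.52 and none was 2-fold, and with no minimum the median was 0.43. H2-Aa, the alpha chain of I-A, had 4.64 FPKM in Tet2 KO against 0.219 in WT, a log2 ratio of 2.21. H2-Ab1, its beta partner, had 5.44 FPKM in Tet2 KO against 0.976 in WT, a log2 ratio of 1.70. Both chains of I-A were thus close to each other in Tet2 KO but not in WT, where values lay under 1 FPKM. H2-Eb1, the beta chain of I-E, had 2.50 FPKM in Tet2 KO against 0.592 in WT, a log2 ratio of 1.14, the 2-fold member nearest to the threshold. H2-Aa, H2-Ab1 and H2-Eb1 summed to 12.6 FPKM in Tet2 KO against 1.79 in WT, a 7.03-fold ratio. Its alpha partner appears as H2-Ea-ps, a pseudogene by its symbol, with 0.402 FPKM in Tet2 KO against 0.212 in WT.

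The class II editors differed less. H2-DM, which exchanges the invariant chain fragment for peptide, is built from H2-DMa and an H2-DMb chain. H2-DMa had 4.75 FPKM in Tet2 KO against 3.02 in WT, a log2 ratio of 0.52. H2-DMb1 had 3.31 FPKM in Tet2 KO against 1.18 in WT, a log2 ratio of 0.98, just outside the threshold. H2-DMb2 had 2.31 FPKM in Tet2 KO against 1.61 in WT, a log2 ratio of 0.34. Both beta genes are close copies, with a second copy for 29.03% and 37.1% of their 50-base windows. H2-Oa and H2-Ob, the chains of H2-O, which restrains H2-DM, had at most 0.232 FPKM. Cd74, the invariant chain that escorts new class II molecules and that also occurs apart from them, was the most abundant gene of this kind, with 29.8 FPKM in Tet2 KO against 9.48 in WT, a log2 ratio of 1.55. Class II rows and Cd74 together had 53.4 FPKM in Tet2 KO against 17.4 in WT, a 3.06-fold ratio.

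Leukocyte markers moved with the class II genes. Of 15 markers listed for leukocytes, 10 met the minimum, all 10 were higher in Tet2 KO and 8 at least 2-fold, with a median log2 ratio of 1.59. Over all genes that met the minimum, 48.8% were higher and 2.08% at least 2-fold higher. The list was chosen with earlier results of these data known, so nothing is drawn from the contrast. Among the 10, Adgre1, the macrophage marker F4/80, met the minimum through Tet2 KO alone and so had to be higher. It had 3.67 FPKM in Tet2 KO against 0.712 in WT. Summed over all 15 markers, the level was 398 FPKM in Tet2 KO against 101 in WT, a 3.94-fold ratio. Lyz2, the lysozyme of macrophages and granulocytes, made 253 and 59.5 FPKM of these sums. Ptprc, which encodes the CD45 used to sort leukocytes away, had 5.67 FPKM in Tet2 KO against 1.36 in WT, and Itgam, which encodes CD11b, had 10.1 FPKM in Tet2 KO against 2.09 in WT. Of these, Lyz2, Adgre1 and Itgam are typical of the myeloid line, while Ptprc marks leukocytes more widely. The T cell marker Cd3e and the natural killer cell marker Ncr1 were listed at 0 in Tet2 KO, the dendritic cell precursor marker Flt3 had under 0.01 FPKM in both groups, and Itgax, which encodes CD11c, had 0.312 FPKM in Tet2 KO against 0.189 in WT. The part of such cells in the class II, Cd74 and H2-T differences was not tested. Myoblast markers were slightly lower, 6 of 6 with a median log2 ratio of -0.10. Of 5 fibroblast markers, 4 met the minimum and were higher, with a median of 0.41. Among them Ly6a, which encodes the Sca1 that the sort selected against, had 288 FPKM in Tet2 KO against 278 in WT. Of 5 endothelial markers only Pecam1 met the minimum, with 1.48 FPKM in Tet2 KO against 1.63 in WT.

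**Figure D3:**
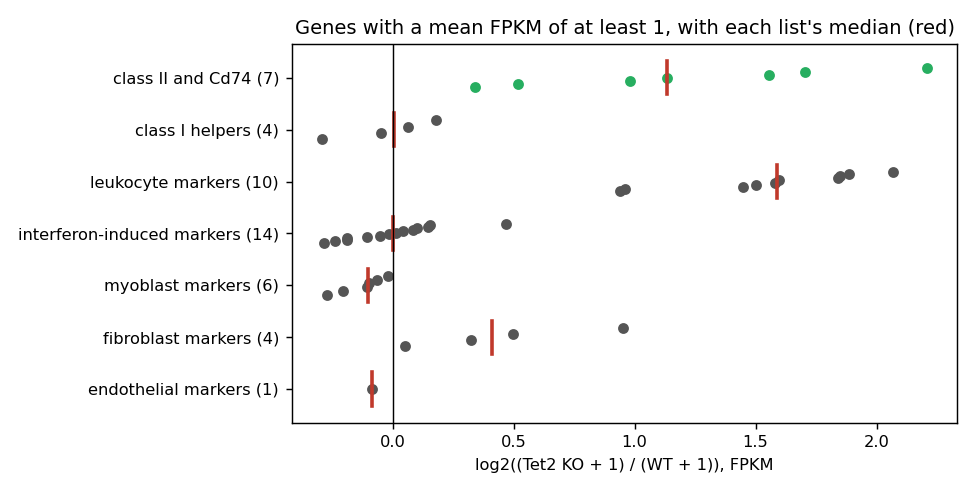
Log2 ratio of each gene with a mean of at least 1 FPKM (points, number of genes in brackets) in class II with Cd74, in the class I helpers B2m, Tap1, Tap2 and Tapbp, and in 5 marker lists, with each list's median as a red line. Class II genes and leukocyte markers lie to the right of 0, with medians of 1.14 and 1.59, while class I helpers and interferon-induced genes centre near 0. H2-Aa, H2-Ab1, H2-Eb1 and Adgre1 met the minimum through Tet2 KO alone, so these points had to lie to the right.

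The shared machinery of class I was level between the groups. B2m, the light chain of all class I molecules, had 936 FPKM in Tet2 KO against 967 in WT, a log2 ratio of -0.05. Tap1 had 118 FPKM in Tet2 KO against 113 in WT, and Tap2, its partner in the peptide transporter, had 82.0 FPKM in Tet2 KO against 101 in WT, log2 ratios of 0.06 and -0.29. Tapbp, which encodes tapasin, had 72.8 FPKM in Tet2 KO against 64.2 in WT, a log2 ratio of 0.18. None of these helpers came near the H2-T23 locus in the size of its difference. The class I transactivator Nlrc5 had 32.1 FPKM in Tet2 KO against 30.8 in WT, a log2 ratio of 0.06. The class II transactivator Ciita had 1.95 FPKM in Tet2 KO against 2.36 in WT, a log2 ratio of -0.19. Its part in the class II difference was not tested. H2-Ke6, which lies in the region but encodes a steroid and fatty acid dehydrogenase and not an MHC chain, had 5.79 FPKM in Tet2 KO against 7.07 in WT.

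Other genes of the pathway, from 6 lists with 57 symbols in the table, gave 47 that met the minimum, 29 higher and 18 lower, with a median log2 ratio of 0.10. Only Ctss was at least 2-fold higher and 0 were 2-fold lower, which is near the share of all genes (2.08% higher, 1.21% lower). Ctss, the cathepsin that trims the invariant chain in antigen-presenting cells, had 73.2 FPKM in Tet2 KO against 18.4 in WT, a log2 ratio of 1.93. Ctsl, a cathepsin with the same task in thymic epithelium, went the other way, with 157 FPKM in Tet2 KO against 300 in WT, a log2 ratio of -0.92. Lgmn, an endosomal protease, had 35.0 FPKM in Tet2 KO against 37.4 in WT. So the lysosomal proteases did not move together. March1, a ubiquitin ligase that removes class II molecules from the cell surface, had 1.98 FPKM in Tet2 KO against 0.513 in WT, a log2 ratio of 0.98 just short of 2-fold, and met the minimum through Tet2 KO alone.

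Of 6 proteasome genes, 0 passed 2-fold. The activator subunits Psme2 and Psme1 had 369 and 224 FPKM in Tet2 KO against 337 and 206 in WT, and Psmb8, a catalytic subunit of the immunoproteasome, had 232 FPKM in Tet2 KO against 287 in WT. The chaperones Hspa5, Calr and Canx, which fold new heavy chains, had 464, 403 and 217 FPKM in Tet2 KO against 465, 405 and 223 in WT. Among 21 regulators none was 2-fold apart. Irf1, which acts in the interferon-gamma response, had 202 FPKM in Tet2 KO against 182 in WT, and Nfkb1, a subunit of NF-kappa B, had 48.4 FPKM in Tet2 KO against 48.7 in WT. A separate list of 15 interferon-induced genes, which shares members with the regulators, had 14 above the minimum, 7 higher and 7 lower, 0 of them 2-fold, with a median log2 ratio of -0.00030.

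Class I-like genes outside the region were low. Of 15, 7 met the minimum and 0 were 2-fold apart: Fcgrt, the neonatal Fc receptor, had 9.34 FPKM in Tet2 KO against 11.4 in WT, the lipid-presenting Cd1d1 had 6.19 FPKM in Tet2 KO against 8.37 in WT, and Procr, the protein C receptor, had 5.22 FPKM in Tet2 KO against 3.37 in WT. Below the minimum, Cd1d2, a close relative of Cd1d1, had 0.0171 FPKM in Tet2 KO against 1.00217 in WT, a log2 ratio of -0.98. Of 4 costimulation genes the inhibitory ligand Cd274 had 9.99 FPKM in Tet2 KO against 8.31 in WT and the receptor Cd40 had 4.06 FPKM in Tet2 KO against 2.65 in WT. The ligands of CD28 on T cells were below the minimum, Cd80 with 0.810 FPKM in Tet2 KO against 0.738 in WT and Cd86 with 0.762 FPKM in Tet2 KO against 0.163 in WT.

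Other genes of the same region differed little in most cases. The H2- rows span 3.51 Mb of chromosome 17, from 34111604 to 37620499, and 157 other rows lie in it. Of these, 71 met the minimum, and their median log2 ratio was 0.05. In Tet2 KO 48 were higher and 23 lower, where 48.8% of all genes were higher. At 1.5-fold, 6 were higher and 0 lower, against 3.72% and 2.89% of all genes, so the higher share was above that of all genes. At 2-fold, 2 were higher and 0 lower, near the 2.08% and 1.21% over all genes. The 2-fold higher genes were Lst1 and Aif1. Lst1, a gene of leukocytes, had 7.77 FPKM in Tet2 KO against 1.71 in WT. Aif1, the macrophage and microglia gene also called Iba1, had 4.46 FPKM in Tet2 KO against 1.58 in WT. Within the class II stretch Tap1, Tap2, Psmb8 and Psmb9 lie among the higher class II genes and had log2 ratios between -0.30 and 0.06.

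**Figure D4:**
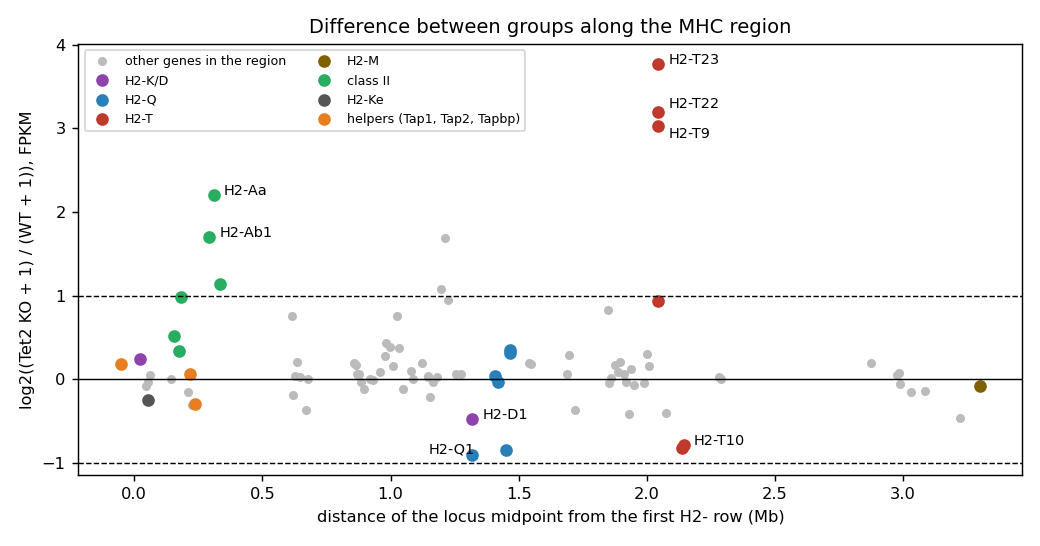
Log2 ratio (vertical axis) of members and of the other genes with a mean of at least 1 FPKM against the distance of the midpoint of the locus from the first H2- row, in Mb, on chromosome 17; dashed lines mark 2-fold. H2-T22, H2-T23 and H2-T9 stand above 3 at 1 place because they share a locus, and all but 2 of the 71 grey points of other genes lie between the dashed lines.

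Promoters of the members were compared as well. RefSeq start sites of the build GRCm38.p6, which is not the build of the table, were used for 35 of the 51 members. These are called matched below. Cd74 was left out of them and of the motif counts, so its absence does not mean that it has no RefSeq start. Windows of 250 bases before each start were searched on both strands for 3 motifs: AANNGAAA, the core bound by interferon regulatory factors, CCAAT, bound by NF-Y, and kappa B enhancer A, a perfect match to the NF-kappa B site of class I promoters, which is the run of 10 capitals in H2-K1 below. Of 32851 windows of the same length over all genes, 21.3% held AANNGAAA, 33.8% CCAAT and 0.0852% enhancer A. Class I windows of 3 genes are shown, on the strand of the gene and for H2-K1 before the more upstream of 2 starts, because they belong to genes that were much higher, much higher and almost level in Tet2 KO. Capitals mark the motifs, also where they read on the other strand.
H2-T23 (chr17:36032702-36032951, minus strand): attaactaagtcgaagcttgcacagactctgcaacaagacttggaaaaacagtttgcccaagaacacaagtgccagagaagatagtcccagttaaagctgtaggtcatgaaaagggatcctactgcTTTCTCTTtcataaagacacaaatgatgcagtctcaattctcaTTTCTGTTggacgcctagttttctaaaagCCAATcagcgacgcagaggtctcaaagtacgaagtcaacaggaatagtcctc
H2-T22 (chr17:36042743-36042992, minus strand): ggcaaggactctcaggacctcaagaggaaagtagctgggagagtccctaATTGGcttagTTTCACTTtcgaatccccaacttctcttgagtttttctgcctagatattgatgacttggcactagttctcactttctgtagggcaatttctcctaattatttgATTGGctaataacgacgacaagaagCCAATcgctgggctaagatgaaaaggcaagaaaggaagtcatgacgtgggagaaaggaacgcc
H2-K1 (chr17:34000348-34000597, minus strand): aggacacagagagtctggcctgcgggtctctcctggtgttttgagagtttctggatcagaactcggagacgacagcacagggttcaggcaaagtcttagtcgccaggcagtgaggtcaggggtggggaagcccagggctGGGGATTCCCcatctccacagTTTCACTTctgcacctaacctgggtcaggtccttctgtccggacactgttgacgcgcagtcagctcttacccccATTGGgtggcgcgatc
H2-K1 held enhancer A with its first base 111 bases before the start and an interferon regulatory factor core at 90 bases. H2-T23 held 2 such cores, at 124 and 81 bases, and H2-T22 held 1, at 191 bases, and neither window held enhancer A. The enhancer A letters occurred in 4 member windows, H2-K1, H2-D1, H2-Q6 and H2-Q7, none of which was 2-fold apart. The interferon regulatory factor core stood in all 11 matched H2-K, H2-D, H2-Q and H2-T genes, whichever way they differed, in 4 of 12 H2-M genes and in 3 of 8 class II genes. CCAAT stood in 32 of the 35 matched members, among them 20 of 23 class I genes and all 8 class II genes. For H2-DMa, which has 2 starts, the downstream one was counted. The window of its upstream start held neither CCAAT nor the interferon regulatory factor core. These matches describe letters in the windows and say nothing about binding.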

How the data were processed

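RNA sequencing covered 4 libraries of cultured myoblasts, 2 of each genotype. The study's methods state that the authors trimmed read pairs, aligned them to mm9 with TopHat2 2.0.13, estimated expression as FPKM and compared the groups with Cuffdiff 2.2.1, versions which the submitters' processing notes give as well, beside CASAVA and FastQC. The annotation and the handling of reads with several matches are not given in the sources used here. The deposited table holds 1 FPKM value per gene and group, read here as pooling the libraries of a group. It also holds the authors' fold changes, statistics, p-values and q-values of the same comparison, which were not used. Nothing says whether the libraries came from separate mice.

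The members and gene lists were chosen with earlier results of these data known. Each member that averaged 1 FPKM or more is named, and those below by group and range, except a row with at least 1 FPKM in 1 group. Genes of the pathway lists are named when 2-fold apart or among the 3 highest of their list, except items that are not reported here, and a few others (Cd86, March1, Cd1d2, Psmb9, Lst1, Aif1, single markers, and H2-Ea-ps, H2-T3, H2-Bl, H2-Oa and H2-Ob below the minimum) were added after their values were seen. Genes with a mean FPKM under 1 were left out of counts and medians. Alternatives were another pseudocount (0.1 or none), no minimum or one of 5 FPKM, rescaling to TPM, centring on the median, leaving out or summing rows of a shared locus, a 1.5-fold threshold and, chosen after seeing the data, at least 1 FPKM in both groups. Starts in the table count from 0, so 1 was added. Of the 51 members, 44 were annotated at their locus in GENCODE vM1, which is on the same build. Promoters came from RefSeq. The counting was tested on simulated data. Python 3.11.15, numpy 2.4.6, pandas 2.3.3, Biopython 1.88 and matplotlib 3.10.9 were used.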

Additional observations from a re-analysis of the deposited data

How the results depend on the processing

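A change of pseudocount or minimum cannot alter the direction of a single gene's log2 ratio. No scaling moved the median of all genes by more than 0.0044, so it could hardly turn a member, and none turned. Direction was therefore not put to a real trial by these changes. Counts and medians depended more on the choices. The 7 members at least 2-fold higher in Tet2 KO became 4 of 16 with a mean of at least 5 FPKM, 3 of 17 among rows with a locus of their own and 4 of 25 with at least 1 FPKM in both groups, which removes H2-Aa, H2-Ab1 and H2-Eb1. Rows with a locus of their own also leave out Cd74, Nlrc5 and B2m, whose loci carry Mir5107, Mir7072, and Patl2 with Trim69. Cd74 and B2m had no 50-base window with a second copy, so their reads are not uncertain in the way of the H2-T rows. The count of members 2-fold higher was 9 of 29 with a pseudocount of 0.1 or none, and 10 of 31 with TPM. With no minimum it was 8 of 43, rows at 0 in both groups left out. H2-DMb1 and H2-T24 passed 2-fold with TPM and with a pseudocount of 0.1 or none. Against 0 members 2-fold lower, 3 (H2-Q1, H2-Q6 and H2-T-ps) were lower with a pseudocount of 0.1 or none and 4 at 1.5-fold. The single pathway gene 2-fold higher became 2 with a pseudocount of 0.1, with none and with TPM and 3 at 1.5-fold, where 1 was lower in place of 0. At 1.5-fold, 3.72% of all genes were higher and 2.89% lower. For the other alternatives the shares over all genes were not worked out, so those counts have no background beside them and nothing is drawn from them.

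The H2-T median of 1.98 reversed to -0.80 among rows with a locus of their own and to -0.79 with rows summed per locus, since the H2-T23 locus then counts not at all or once. It was 2.54 with a pseudocount of 0.1, 2.66 with none, 0.93 with no minimum, 3.11 with a mean of at least 5 FPKM, 2.19 with TPM and 3.03 with at least 1 FPKM in both groups. The class II median of 1.06 was 1.66 and 1.78 with a pseudocount of 0.1 and none, 0.43 with no minimum, 1.28 with TPM and 0.52 with at least 1 FPKM in both groups. The H2-K and H2-D median of -0.12 was 0.13 with no minimum, 0.033 with TPM and 0.25 (H2-K1 alone) with unshared loci, the H2-Q median was 0.19 with a mean of at least 5 FPKM, and the helper median of 0.059 was -0.063 with unshared loci. The median of all members, 0.18, was 0.062 with no minimum and with unshared loci, 0.060 with a mean of at least 5 FPKM and with summed loci, and 0.059 with at least 1 FPKM in both groups. Apart from the effect of fewer rows, the cause was not tested.

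No paired analysis was possible because each group had 1 pooled value per gene, and for the same reason leaving out each replicate was not run. Depth is unknown, so no limit of detection can be given for values near 0.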
